A study of Caenorhabditis elegans with 10 samples.

Results

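The left arm of chromosome II was described as the set of accessible regions whose summit lay below 4880 kb on chromosome II of the ce10 assembly of Caenorhabditis elegans. These regions were chosen by their positions in the deposited peak lists, and the arm was singled out with results from the same lists known, so every value below is a description and no test was made. The arm held 2838 of the 55893 peaks in the 3 lists together. It held 1593 of 27694 early embryo peaks, 553 of 13040 L3 peaks and 692 of 15159 young adult peaks. Chromatin accessibility had been measured by ATAC-seq, in which the Tn5 transposase cuts and tags open DNA in isolated nuclei, in whole worms of the N2 wild-type strain. The stages were early embryos bleached out of adults, larval stage 3 (L3) animals collected 36 h after the start of egg laying and young adults collected 57 h after it, with 3 replicates each. One further library of transposed genomic DNA from mixed-stage worms served as input. The lists hold 1 pooled set of peaks per stage, so there was no spread between replicates to compare with, and each stage mixes all tissues of the animal.

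The autosomes of C. elegans are divided into a central region and 2 arms. The arms recombine more often, hold more repeats and more histone H3 lysine 9 methylation, and lie more often at the nuclear periphery than the centres. They are rich in young, fast-evolving gene families, whereas conserved and essential genes are more common in the centres. The left arm of chromosome II is known for clusters of F-box genes and of genes with MATH domains, which are thought to serve as adaptors for protein degradation. The centre of the chromosome was taken as 4880 to 12020 kb, and the right arm as the rest, up to the end of the last peak.

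One accessible region of the arm had been cloned in front of a reporter gene by the study. The study counted it among its functional enhancers, with reporter activity in hypodermis of the head or tail. The study adds that the region had earlier been proposed to be a promoter. It lies, by the study's account, near the end of W08F4.7 and ahead of mlt-8, a gene named for a moulting defect. The study's primers are shown because they amplified the fragment around the region whose peaks are described in detail further on. Only the worm part of each primer is given, 5′ to 3′ and in lower case, without the vector tail of 23 bases that it shares with the other primers of its side.
mlt-8 region forward: ttgtctacgtacacttcaaacttaaaa
mlt-8 region reverse: tcgtaaatcttcaatgaaataagaaa
The forward part has 27 bases, 8 of them G or C, and the reverse part has 26 bases, 6 of them G or C. Both are AT-rich, and the strand on which each anneals was not looked up, since no ce10 sequence was used here.

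The arm was dense in peaks in the early embryo and sparse in L3. In the early embryo it held 163 peaks per 500 kb (exact Poisson 95% interval 155 to 171), against 153 (146 to 159) in the centre, 151 (142 to 161) in the right arm and 128 (126 to 130) on the other autosomes. In L3 it held 56.7 peaks per 500 kb (52.0 to 61.6), against 75.8 (71.3 to 80.4) in the centre, 74.8 (68.3 to 81.8) in the right arm and 60.9 (59.6 to 62.2) on the other autosomes. In the young adult it held 70.9 (65.7 to 76.4), against 78.6 (74.1 to 83.4) in the centre, 94.5 (87.2 to 102) in the right arm and 73.7 (72.3 to 75.2) on the other autosomes. These intervals, and those of shares below, cover counting error alone.

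The arm's density relative to the centre was above 1 in the early embryo and below 1 in both later stages. The ratio of left arm to centre density was 1.07 (exact 95% interval 1.00 to 1.14) in the early embryo, 0.75 (0.67 to 0.83) in L3 and 0.90 (0.82 to 0.99) in the young adult. The early embryo difference was close to the counting error. Against the right arm the ratios were 1.08 (1.00 to 1.17), 0.76 (0.67 to 0.86) and 0.75 (0.67 to 0.84) in the same order of stages. Against the other autosomes they were 1.27 (1.21 to 1.34), 0.93 (0.85 to 1.01) and 0.96 (0.89 to 1.04). By the study's own read table, the early embryo libraries were sequenced most and the L3 libraries least. Depth therefore differed along with stage. Its part in the length of each list and in the ratios above was not tested. The lists hold no read counts, so the depth behind a single peak is unknown.

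**Figure D1:**
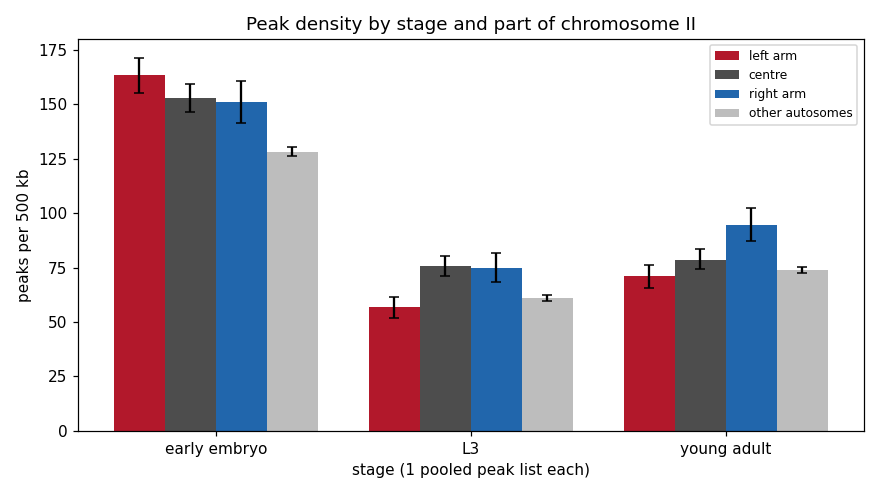
Peaks per 500 kb (vertical axis) in the early embryo, L3 and young adult lists for the left arm, centre and right arm of chromosome II and for the other autosomes. Bars are counts divided by length and error bars are exact Poisson 95% intervals; the left arm is highest in the early embryo, at 163, and lowest in L3, at 56.7.

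The left arm was also highest in covered length in the early embryo and lowest in both later stages. Early embryo peaks covered 8.68% of the left arm, 7.90% of the centre and 8.03% of the right arm. L3 peaks covered 3.32% of the left arm, 4.71% of the centre and 4.68% of the right arm. Young adult peaks covered 4.31% of the left arm, 4.92% of the centre and 5.88% of the right arm. The left arm makes up 31.9% of the chromosome's length, and it held 33.5% of the chromosome's early embryo peaks, 26.1% of its L3 peaks and 28.5% of its young adult peaks.

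Within the arm the early embryo count ranged between 107 and 183 per block of 500 kb, counted from the left end. The 3 fullest blocks were block 8 with 183 early embryo peaks, block 2 with 181, and blocks 6 and 7, which tied at 180. The 3 emptiest of the blocks that lie wholly in the arm were block 5 with 107, block 3 with 140 and block 1 with 159. Block 5, from 2.0 to 2.5 Mb, was also the emptiest in L3, with 22 peaks, and in the young adult, with 40. Its ratio of L3 to early embryo peaks was 0.206, the lowest of the 31 blocks of the chromosome and rank 2 from below among 162 autosomal blocks. All 9 blocks that lie wholly in the arm had a lower L3 to early embryo ratio than the median autosomal block, with a median of 0.311 in the arm against 0.472 over the autosomes. Their median early embryo count was 175, against 131.5 over the autosomes, and 8 of the 9 exceeded it. A high early embryo count was not particular to the left arm. The centre and the right arm, at 153 and 151 peaks per 500 kb, also exceeded the 128 of the other autosomes.

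A peak was counted as found in a stage alone when no peak of another list shared with it at least 50% of the length of either one. Of the arm's early embryo peaks, 948 of 1593 or 59.5% were found in the early embryo alone (exact Clopper-Pearson 95% interval 57.1 to 61.9), against 50.9% of the whole early embryo list. The share was 51.4% (49.3 to 53.5) in the centre, 46.1% (43.0 to 49.3) in the right arm and 49.3% (48.6 to 50.1) on the other autosomes. The arm's interval did not meet that of any of these. Being found in a stage alone means that no counterpart passed the peak threshold in the other lists, and does not show that the DNA was closed there.

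**Figure D2:**
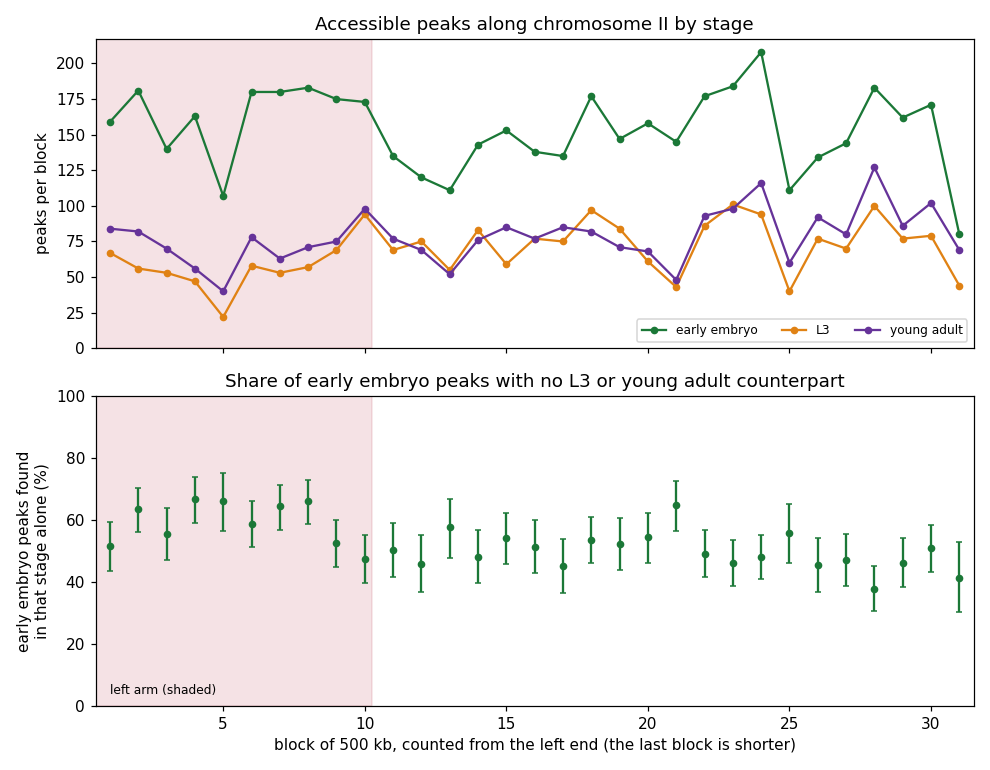
Top, peaks of each stage per 500 kb block of chromosome II, numbered from the left end; bottom, share of early embryo peaks found in that stage alone, with exact 95% intervals, and the left arm shaded in both. Block 5 has the arm's lowest counts (107, 22 and 40 peaks), and the share exceeds 60% in blocks 2, 4, 5, 7 and 8 of the arm and in block 21 of the centre.

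The early embryo-only share was spread unevenly along the arm. It was 66.9% in block 4, 66.4% in block 5, 66.1% in block 8, 64.4% in block 7 and 63.5% in block 2. It was 51.6% in block 1, at the tip, and 52.6% in block 9. All 9 blocks exceeded the autosomal median of 49.1%, and 7 of them were among the 41 autosomal blocks above the upper quartile of 54.7%. Blocks 4, 5 and 8 had ranks 3, 4 and 5 of the 162. In the centre, block 21 came nearest, with 64.8%.

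Set against the centre, the arm's early embryo peaks lacked counterparts in L3 more than in the young adult. Set against the right arm, they lacked counterparts in both later stages to a similar degree. A counterpart in L3 was found for 27.9% of them (25.7 to 30.1), against 38.1% (36.1 to 40.2) in the centre and 39.9% (36.8 to 43.1) in the right arm. A counterpart in the young adult was found for 34.0% (31.7 to 36.4), against 38.0% (36.0 to 40.1) in the centre and 45.8% (42.7 to 49.0) in the right arm. The 341 arm peaks with counterparts in both later stages made up 21.4% (19.4 to 23.5), against 27.5% (25.6 to 29.4) in the centre, 31.9% (29.0 to 34.9) in the right arm and 29.2% in the whole list. Peaks shared with L3 alone made up 6.47% of the arm's list (5.31 to 7.79), against 10.6% in the centre, 8.04% in the right arm and 7.93% on the other autosomes. Those shared with the young adult alone made up 12.6%, against 10.5% in the centre, 14.0% in the right arm and 12.6% on the other autosomes.

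**Figure D3:**
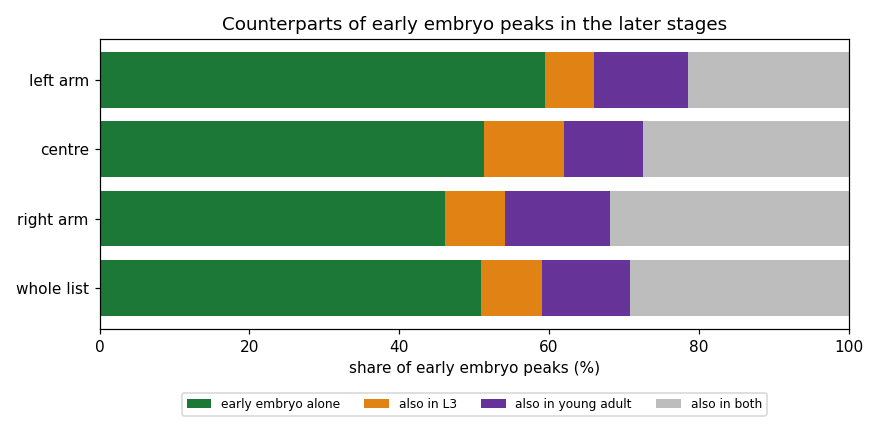
Share of early embryo peaks (horizontal axis, percent) found in that stage alone, also in L3, also in the young adult, or in all 3 stages, for the left arm, centre, right arm and whole list. The left arm has the largest early embryo-only part, 59.5%, and the smallest part with counterparts in both later stages, 21.4%.

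Seen from the later stages, the shares of peaks found in a single stage and in all 3 stages were near those of the whole lists, while the young adult peaks had counterparts in the early embryo more often and in L3 less often. Of its 553 L3 peaks, 54 or 9.76% were found in L3 alone (7.42 to 12.5), against 12.7% in the centre and 10.9% of the whole list. All 3 stages shared 337 of them or 60.9%, against 53.1% in the centre and 60% of the whole list. Of its 692 young adult peaks, 109 or 15.8% were found in the young adult alone (13.1 to 18.7), against 16.6% in the centre and 17.3% of the whole list, and 336 or 48.6% were shared by all 3 stages, against 51.2% in the centre and 50.9% of the whole list. Peaks shared by L3 and the young adult without the early embryo made up 11.2% of the arm's L3 peaks, against 12.7% of that list, and 8.82% of its young adult peaks, against 11% of that list. These list values lay inside the arm's 95% intervals. Other list values did not. Young adult peaks shared with the early embryo alone made up 26.9% of the arm's young adult peaks (23.6 to 30.3), against 19.3% in the centre and 20.8% of the whole list. An early embryo counterpart was found for 75.4% (72.0 to 78.6), against 70.5% in the centre and 71.7% of the whole list, and an L3 counterpart for 57.4% (53.6 to 61.1), against 64.1% in the centre and 61.9% of the whole list.

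The early embryo-only peaks of the arm included strong ones. Strength is given here as the fold enrichment of MACS, the reads of a peak set against the background around it in that pooled library, and ranks are within a list. Across the genome the early embryo-only share was low among peaks of high fold, and this was less marked in the arm. Of the arm's 153 peaks in the highest 10% of the early embryo list by fold, 53 or 34.6% were found in the early embryo alone (27.1 to 42.7). The share was 12.5% in the centre (23 of 184 peaks, 8.09 to 18.2), 15.0% in the right arm (15 of 100 peaks, 8.65 to 23.5) and 12.7% in the list without the left arm (331 of 2616 peaks, 11.4 to 14.0). The arm thus held 13.8% of all early embryo-only peaks in that highest 10%, while it held 5.75% of all early embryo peaks. This cut was chosen after the values were seen, and in the highest 5% the shares were 28.2% in the arm (20 of 71 peaks) and 7.22% in the centre (7 of 97 peaks).

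Going down the list in 10 equal steps of fold rank, the gap between the arm and the centre was widest in the first 2 steps and uneven after them. In the next step, ranks 10 to 20%, the early embryo-only share was 48.4% (41.2 to 55.7) in the arm and 26.3% (20.5 to 32.7) in the centre. In the fourth it was 51.9% (43.8 to 60.0) in the arm and 46.2% (39.4 to 53.2) in the centre, but in the fifth it was 62.9% (54.5 to 70.9) in the arm and 44.1% (37.4 to 51.1) in the centre. In the seventh it was 68.1% (60.3 to 75.3) in the arm and 54.1% (47.5 to 60.7) in the centre. The gap was small in the third, at 44.3% and 39.7%, and in the sixth, at 66.5% and 63.0%, with overlapping intervals. In the eighth there was none, with 70.5% (62.5 to 77.7) in the arm and 71.0% (64.6 to 76.9) in the centre. In the weakest step it was 77.8% (70.8 to 83.8) in the arm and 72.5% (66.2 to 78.2) in the centre, with overlapping intervals. The 53 strong early embryo-only peaks had a median fold of 4.34 and a median width of 308 bp. They lay mostly in the outer part of the arm, with 12 in block 5, 11 in block 4 and 10 in block 2, against 2 in block 8, none in block 9 and 1 in block 10.

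**Figure D4:**
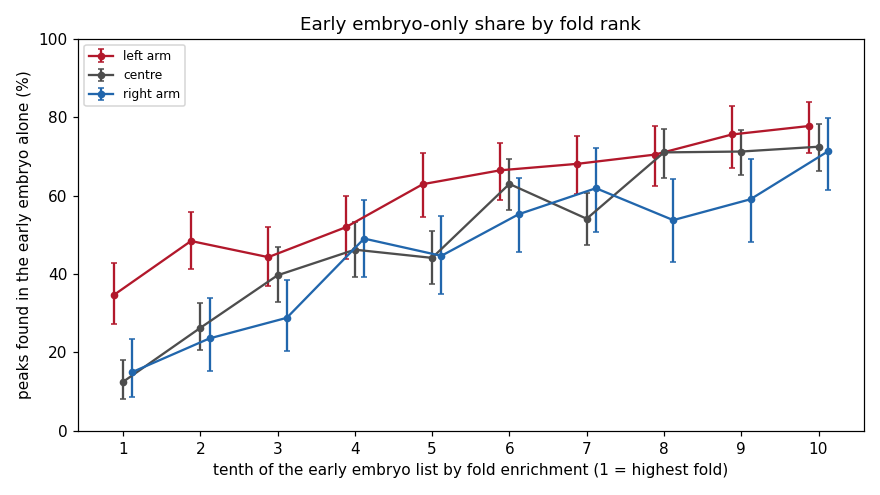
Share of early embryo peaks found in that stage alone (vertical axis, percent, with exact 95% intervals) in 10 equal steps of fold rank over the whole early embryo list, for the left arm, centre and right arm. The left arm stands highest in the strongest step, at 34.6% against 12.5% in the centre and 15.0% in the right arm, and in the weakest step the shares are 77.8%, 72.5% and 71.3%.

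Among the strong early embryo-only peaks, the first was chrII:429590-430062, 473 bp wide. It had a fold of 7.96 and rank 126 of 27694, and no other early embryo-only peak of the genome had a higher fold. The next in the arm were chrII:2145840-2146136 with a fold of 6.86 (rank 293), chrII:1538692-1539056 with 6.34 (rank 440), chrII:909633-909898 with 5.95 (rank 560) and chrII:1040320-1040781 with 5.71 (rank 671). Of the 10 early embryo-only peaks of highest fold in the genome, 3 lay in the arm, and of the first 100, 19 did, while the arm held 6.72% of all early embryo-only peaks. The annotation that pairs such positions with genes in ce10 was not used here, so no gene is named for them.

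The strongest peak of the arm was the same region in every list. It spanned chrII:4376680-4377244 in the early embryo (fold 9.41, rank 29 of 27694), chrII:4376367-4377264 in L3 (fold 16.7, rank 19 of 13040) and chrII:4376348-4377251 in the young adult (fold 17.7, rank 12 of 15159). In the 2 later lists it was a single peak of 898 and 904 bp, and in the early embryo list 2 adjoining peaks stood in its place. Its summits in the 3 lists, at 4376845, 4376842 and 4376835, lay within 10 bp of each other.

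Of the next early embryo peaks by fold, 2 stood low in the later lists and 2 stood high. The second, chrII:1001309-1001663, had a fold of 8.87 and rank 59 in the early embryo. Its L3 counterpart had a fold of 2.62 (rank 8432 of 13040) and its young adult counterpart a fold of 2.84 (rank 7168 of 15159). The third, chrII:988692-988964, was nearby and had like ranks. Its fold was 8.36 in the early embryo (rank 87), 2.07 in L3 (rank 11690) and 2.53 in the young adult (rank 8960). The fourth, chrII:1714711-1715411, had ranks 103, 2706 and 1782 in the early embryo, L3 and young adult. The fifth, chrII:66109-66883, was also the widest early embryo peak of the arm at 775 bp, and ranked 116, 577 and 435 in the same order. Of the 87 arm peaks in the highest 10% of the early embryo list that had an L3 counterpart, 16 or 18.4% had it in the lower 50% of the L3 list (10.9 to 28.1), against 13.1% in the centre and 13.5% of the whole list. The right arm was close to the left arm, with 14 of 83 such peaks or 16.9% (9.54 to 26.7).

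The strongest L3 and young adult peaks of the arm all had counterparts in the early embryo. After the shared first peak, the L3 list was led by chrII:221009-221766 (fold 15.0, rank 37), chrII:323278-323840 (13.7, rank 77), chrII:1246744-1247423 (11.8, rank 156) and chrII:3930848-3931178 (11.2, rank 221). In the early embryo the counterparts of these regions ranked 1145, 1610, 248 and 1222 of 27694. The young adult list was led, after the shared first peak, by chrII:1246712-1247420 (fold 14.0, rank 68), chrII:18817-19247 (12.9, rank 104), chrII:221147-221654 (11.7, rank 173) and chrII:4506491-4506926 (11.4, rank 201). Of these, chrII:18817-19247 was the first young adult peak of the chromosome. Its counterparts ranked 1366 in the early embryo and 231 in L3.

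Some peaks of the arm were found in the later stages alone. The strongest L3-only peak, chrII:3054650-3055014, had a fold of 7.67 and rank 1015 of 13040. It was the highest of all 1424 L3-only peaks of the genome, and the sole one within the highest 10% of the L3 list. The next L3-only peaks of the arm, chrII:873477-873714 and chrII:913318-913552, had folds of 5.25 and 5.10. The strongest young adult-only peaks were chrII:4299324-4299547, chrII:4870698-4871071 and chrII:1404573-1404961, with folds of 4.37, 4.33 and 3.80, and the first of them stood in place 79 among the 2629 young adult-only peaks of the genome. Of the peaks in both later stages without the early embryo, chrII:2197540-2197923 led in L3 with a fold of 6.72, followed by chrII:759762-760219 with 6.55 and chrII:1519899-1520242 with 5.50. In the young adult list chrII:1519899-1520266 led with a fold of 6.48, followed by chrII:3077018-3077232 with 5.34 and chrII:851358-851684 with 4.83.

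Peaks of the arm that were shared between stages also stood lower in L3 than elsewhere on the chromosome. A rank percentile runs here from 0 for the highest fold of a list to 100 for the lowest. The 444 arm peaks shared by the early embryo and L3 had a median rank percentile of 27.3 in the early embryo and 56.2 in L3. In the centre the 832 shared peaks had medians of 32.3 and 45.9, and in the right arm the 392 shared peaks had 28.6 and 53.0. A higher place in L3 than in the early embryo was held by 23.4% of the shared peaks in the arm, 28.7% in the centre, 25.3% in the right arm and 30.9% in the whole list. With the young adult, the 542 shared peaks of the arm had medians of 30.6 in the early embryo and 47.1 in the young adult, against 33.7 and 45.6 in the centre. The counterparts sat at nearly the same position, with a median summit shift of 12 bp between the early embryo and L3 in the arm and 13 bp in the centre.

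Taken without regard to stage patterns, the arm's peaks differed little in shape from those of the centre. The median early embryo peak was 250 bp wide in the arm (quartiles 198 and 315), 236 bp in the centre (192 and 303) and 245 bp in the right arm (196 and 315). The median L3 peak was 271 bp wide in the arm (220 and 344), 285.5 bp in the centre (224 and 370) and 292 bp in the right arm (228 and 364). The median young adult peak was 281.5 bp wide in the arm, 287 bp in the centre and 291 bp in the right arm. The quartile ranges overlapped over most of their length in each list. The widest peaks of the arm were the 2 early embryo peaks chrII:66109-66883 (775 bp) and chrII:1421448-1422208 (761 bp), the leading L3 peak and chrII:221009-221766 (758 bp), and the young adult peaks chrII:4869717-4870695 (979 bp) and chrII:4376348-4377251 (904 bp).

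Against the centre, median fold ranks showed the arm slightly high in the early embryo and low in L3. The median rank percentile of early embryo peaks was 48.1 in the arm, 53.4 in the centre and 47.9 in the right arm. In L3 it was 57.2 in the arm, 51.8 in the centre and 54.9 in the right arm. In the young adult it was 54.1 in the arm, 53.5 in the centre and 51.5 in the right arm. The highest 10% of the L3 list took in 6.51% of the arm's L3 peaks (4.60 to 8.90), 7.86% of the centre's and 8.83% of the right arm's. In the young adult list these shares were 6.21% (4.53 to 8.28), 9.80% and 9.76%, so a low share of strong peaks was not particular to L3. Among early embryo-only peaks the median fold was 2.00 in the arm (quartiles 1.77 and 2.44), against 1.91 in the centre (1.71 and 2.21) and 1.97 in the right arm (1.73 and 2.26).

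Early embryo summits lay somewhat closer together in the arm than in the centre, but not closer than in the right arm. The median distance to the nearest summit of the same list was 542 bp in the arm, 621 bp in the centre and 490 bp in the right arm. It was 561 bp on the other autosomes and 572 bp in the whole list. The ratio of arm to centre was 0.87, and it was 1.01 when the 3 lists were cut to equal length by fold, so the order of arm and centre was not kept among the stronger peaks. Another summit within 1 kb was found for 68.5% of early embryo peaks in the arm (66.2 to 70.8), against 67.0% (65.0 to 69.0) in the centre and 70.4% (67.4 to 73.2) in the right arm. In L3 the median distance was 1229 bp in the arm, 1003.5 bp in the centre and 1111 bp in the right arm, and 45.8% (41.5 to 50.0) of L3 peaks in the arm had a summit within 1 kb, against 49.9% (46.9 to 52.9) in the centre. In the young adult the median distance was 973.5 bp in the arm, 941 bp in the centre and 810 bp in the right arm.

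Directly adjoining peaks, which the authors had split at the middle between 2 summits, made up 23.5% of early embryo peaks in the arm (21.4 to 25.6), 22.2% in the centre (20.5 to 24.0) and 29.3% in the right arm (26.5 to 32.3). Counted in bins of 10 kb, the variance of the early embryo count was 1.95 times its mean in the arm, 1.76 times in the centre and 2.13 times in the right arm, where independent placing would give a value near 1. In L3 it was 1.79 times in the arm, 1.56 times in the centre and 1.77 times in the right arm. Bins without any L3 summit made up 46.5% of the arm (42.0 to 51.1), 34.7% of the centre (31.2 to 38.4) and 36.6% of the right arm (31.4 to 42.1). Bins without an early embryo summit made up 18.0% of the arm (14.7 to 21.7) and 16.0% of the centre (13.4 to 18.9).

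In L3, long stretches without a summit took up more of the arm than of the centre or the right arm. L3 summits were more than 20 kb apart over 53.9% of the arm, in 68 stretches, against 35.3% of the centre in 74 stretches and 41.8% of the right arm in 40 stretches. In the young adult such stretches took 41.7% of the arm, 37.2% of the centre and 35.0% of the right arm. In the early embryo they took 17.4% of the arm, 15.2% of the centre and 17.3% of the right arm. A shorter list leaves more room for long stretches, and the arm held 553 L3, 692 young adult and 1593 early embryo peaks. The right arm had the same order of stages as the left arm, whereas in the centre the share was largest in the young adult. The part of list length in these orders was not tested.

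The longest stretch of the arm without an L3 summit ran for 124.6 kb between the summits at chrII:2070376-2194960. It ranked 8 of 10303 intervals between neighbouring L3 summits on the autosomes. The early embryo list had 27 peaks in it, 22 of them found in the early embryo alone and 8 of them in the highest 10% of their list. A stretch picked for having no L3 summit leaves little room for L3 counterparts. That most early embryo peaks in it lack one therefore follows from the choice. Among these early embryo peaks the highest fold was 6.86. Only 3 young adult peaks lay in the stretch, 0 of them in the highest 10% of their own list. The longest stretch without a young adult summit, chrII:1991591-2110366, overlapped it, ran for 118.8 kb and ranked 5 of 12342 such intervals. It held 20 early embryo peaks, 19 of them in the early embryo alone, and 1 L3 peak with a fold of 1.90. Here the lack of young adult counterparts follows from the choice in the same way.

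The longest unbroken run of early embryo-only peaks in the arm also lay here, 19 peaks in a row over chrII:2077307-2150486 (73.2 kb), with folds between 1.54 and 6.86. Such a run is more readily found where no L3 summit lies, so it is not a separate observation. The longest runs elsewhere were 18 peaks over 45.2 kb in the centre and 17 peaks over 40.9 kb in the right arm. In the arm an early embryo-only peak was followed by another in 69.2% of cases, against an early embryo-only share of 59.5%. In the centre these values were 58.4% and 51.4%, and in the right arm 58.3% and 46.1%.

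**Figure D5:**
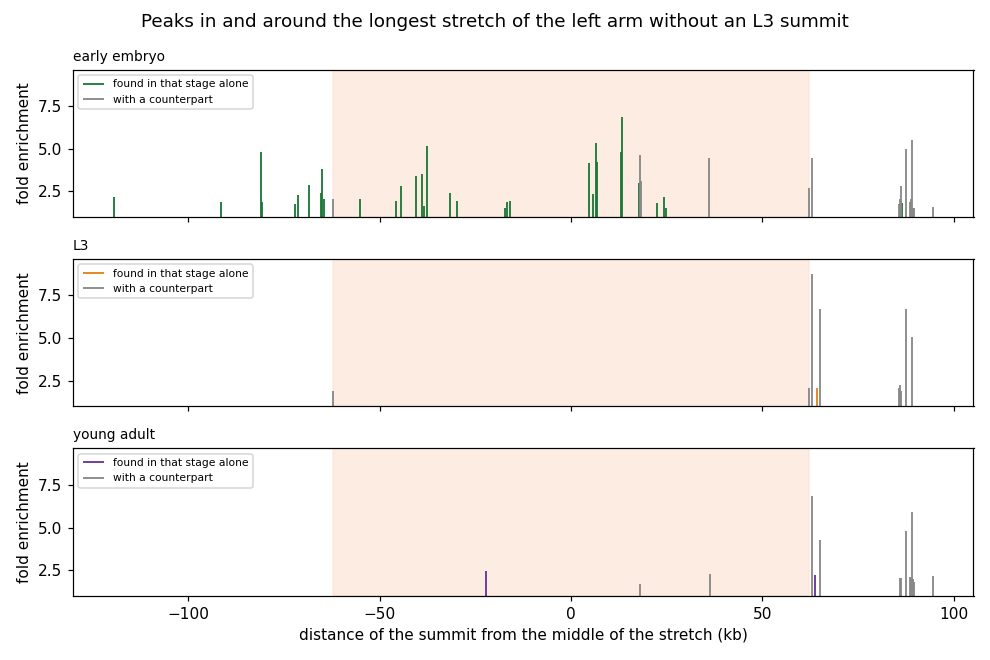
Fold enrichment (vertical axis, from 1) of every peak within and 60 kb around the longest stretch of the left arm without an L3 summit, by distance of the summit from its middle (horizontal axis, kb), with the stretch shaded and peaks of that stage alone in colour. The early embryo panel has 27 peaks in the shaded stretch, the L3 panel none and the young adult panel 3.

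The next longest stretches without an L3 summit, picked in the same way, held early embryo peaks too, but few strong ones. That most of these were early embryo-only again follows largely from the choice. chrII:1892626-1991584 (99.0 kb) held 11 early embryo peaks, 10 of them early embryo-only and 1 of them in the highest 10% of the list, and 3 young adult peaks. chrII:3816752-3897160 (80.4 kb) held 23 early embryo peaks, 21 of them early embryo-only and 0 of them in the highest 10%, and 1 young adult peak. The longest stretches with no summit of any list were shorter, at 42.4 kb (chrII:4316989-4359422), 41.5 kb (chrII:2879068-2920579) and 38.2 kb (chrII:1953396-1991584). Such stretches of over 20 kb took 13.9% of the arm, 9.59% of the centre and 11.5% of the right arm.

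The opposite end of the scale was the 10 kb bin with the most early embryo summits in the arm, chrII:4570001-4580000. It held 13 early embryo, 9 L3 and 7 young adult peaks. Of the 13 early embryo peaks 4 were found in that stage alone, and none of the L3 or young adult peaks was. The folds were between 1.26 and 2.68 in the early embryo, between 1.81 and 3.22 in L3 and between 1.59 and 3.10 in the young adult.

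The reporter region of mlt-8 was an L3 peak of middling strength. The L3 peak chrII:574138-574430, 293 bp wide, had exactly the ends that the study lists for this region, with a fold of 3.20 and rank 6083 of 13040. Its early embryo counterpart, chrII:574194-574380, was 187 bp wide and had a fold of 1.66 and rank 24414 of 27694. No young adult peak overlapped the region. The nearest L3 summit to it lay 1864 bp away at an L3-only peak, chrII:572304-572563, of fold 2.39. For L3 peaks the median of this distance was 1908 bp in block 2, which holds the region, and 1229 bp in the arm.

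Within 10 kb on either side of the mlt-8 region there were 9 early embryo, 6 L3 and 10 young adult peaks, the region's own included. The strongest early embryo peak among them, chrII:566458-566701, was found in the early embryo alone and had a fold of 5.02 and rank 1084. All 10 young adult peaks lay on one side, from position 578700 to 582596, and 5 of them were found in the young adult alone. The adjoining pair of peaks at the far end of that side, chrII:582076-582319 and chrII:582320-582596 in L3, had counterparts in both other lists.

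The border at 4880 kb cut through no peak of any list. The last early embryo peak below it was chrII:4869834-4870224 (fold 2.23), the last L3 peak chrII:4873301-4873656 (3.18) and the last young adult peak chrII:4870698-4871071 (4.33). The first peaks above it were chrII:4881732-4882319 in the early embryo (5.42), chrII:4881576-4882265 in L3 (8.23) and chrII:4881576-4882305 in the young adult (6.06), which were counterparts of each other. At the tip, the first peak of the chromosome was chrII:1248-1666 in the early embryo (fold 4.59, rank 1470) and chrII:1300-1662 in L3 (5.48, rank 2280). The young adult list had no counterpart of it.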

How the data were processed

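The authors mapped paired ATAC-seq reads of 3 replicates per stage to ce10 with Bowtie2 2.1.0 and removed duplicates with Picard. They shifted reads to the insertion sites, called peaks with MACS2 on pooled replicates, split them between summits, kept peaks found across replicates and removed blacklisted regions and input peaks. The deposited lists give for each peak its start, end and summit offset, the fold enrichment (a ratio over local background) and the −log10 of the q-value, all as the authors' caller wrote them. Fold and q may depend on the depth of each list, so peaks of different lists were set side by side by rank within their own list.

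The members and all lists here were chosen with earlier results of these data known. Named peaks were those of highest fold (5 per list, and 5, 3, 3 and 3 for early embryo-only, L3-only, young adult-only and later-stage peaks), the 2 widest of each list, the 3 longest stretches without a summit, the fullest and emptiest blocks, the fullest bin, those next to the border and those around mlt-8. Counterparts shared at least 50% of either peak. The overlap code was checked against bedtools 2.31.1 and tested on simulated data. Intervals were exact, at a level of 95%, from scipy 1.17.1 in Python 3.11.15. Starts are printed counted from 1. A RefSeq gene table of another assembly gave names and order alone. Primers came from the study's oligo list. Base composition, motifs and nearest genes were not analysed here, nor was the input library.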

Additional observations from a re-analysis of the deposited data

How the results depend on the processing

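No paired analysis was possible because the lists pool the replicates. Of 63 recomputed values, 55 stayed within the counting interval of the reported value and kept its direction, 7 moved and 1 changed direction. Many of the 55 could hardly change. The stricter −log10 q cut dropped only 87 early embryo, 36 L3 and 39 young adult peaks, and midpoints in place of summits changed no value. The changes came with equal list lengths and with the chromosome cut into 3 equal parts. For shares, widths, ranks and distances the interval took the value of the centre as fixed. With equal list lengths by −log10 q, the left arm to centre density ratio in the early embryo was 1.18, the early embryo-only share was 12.3 percentage points higher in the left arm than in the centre (reported: 8.14), and the ratio of nearest-summit distances was 0.998. With equal list lengths by fold these were 1.19, 14.9 percentage points and 1.01, the change of direction, and the difference in median width was 6 bp (reported: 14 bp). With the chromosome cut into 3 equal parts the early embryo density ratio was 1.17. The L3 ratio was then 0.80 (reported: 0.75). The young adult ratio was 0.985 (reported: 0.90), within its counting interval but close to 1. Fewer weak early embryo peaks enter at equal length. The difference in the early embryo-only share among the highest 10% by fold (22.1 percentage points) was between 15.8 without blocks 4 and 5 and 25.9 when ranked by −log10 q, alternatives chosen after seeing the data. Depth is unknown for single peaks, and differences in depth between stages were not adjusted for beyond equal list lengths.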

Other observations

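A RefSeq table of the newer WBcel235 assembly was used for gene names and gene order, without its positions. Of 19983 protein-coding genes, 3446 lie on chromosome II, where mlt-8 is gene 122 from the left end, between W08F4.5 and W08F4.7. Genes of some of the families looked up lie mostly before cutl-16 (gene 1603 of 3446), and those of others do not. The upstream region of cutl-16, by the study, lies in the chromosome's centre, so that part reaches beyond the left arm. The border of the arm was not placed in the gene order. Of 37 genes named math, 35 are on chromosome II and all 35 come before cutl-16. Of 104 genes named fbxb, an F-box family, 58 are on the chromosome, 57 of them before cutl-16, and of 48 named fbxc 35 are on the chromosome, 34 of them before cutl-16. Of 35 bath genes 25 are on the chromosome and 22 come before cutl-16, and of 61 sri genes, a chemoreceptor family, 31 are on the chromosome and all 31 come before it. The sre family, also of chemoreceptors, has 33 genes on the chromosome, 2 of them before cutl-16. Of 12 cyp genes on the chromosome 2 come before cutl-16, and of 8 srd genes 1 does. The srh family is split about evenly, with 14 of its 27 genes on the chromosome before cutl-16. Several other families looked up were less common on chromosome II than protein-coding genes at large, 17.2% of which lie there. It holds 14 of 170 fbxa genes, also an F-box family, with 11 of the 14 before cutl-16. It holds 15 of 269 nhr genes, 1 of 193 str genes and 1 of 67 ugt genes. The srj, sru, srbc and srsx families have no gene on it. On the chromosome, 19 math and 21 fbxb genes were followed directly by a gene of the same name. How these genes lie relative to the peaks of the left arm was not tested, since the assemblies differ.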
